A study of Drosophila melanogaster with 6 samples.

Results

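All but 1 of the genes described here encode ion channels of the fruit fly. These are its voltage-gated sodium and calcium channels, its sodium leak channel and its hyperpolarization-activated pacemaker channel. The exception is tipE, whose protein raises the current through a sodium channel. All 8 are called channel genes here. They are para, tipE, NaCP60E, cac, Ca-alpha1D, Ca-alpha1T, na and Ih, 8 of the 13346 genes named on the array. They were chosen by name and function and not by their own values, but with earlier results of these data known. Each had exactly 1 array row, and all 8 lay above the dimmest 25% of rows.

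RNA of fly heads was hybridised to 6 whole-transcript arrays, 3 control and 3 pool. All flies shared the glial driver repo-GAL4, which switches on transgenes in most glia and not in neurons; controls combined it with an empty TRiP RNA interference vector. The pool mixed equal amounts of RNA from 7 crosses to that driver. In 2 of these crosses a transgene was overexpressed, UAS-Dube3a or UAS-htt.12Q.FL, and in 5 a gene was knocked down by RNA interference, namely ATPalpha, nrv2, comt, COX7A or SesB. Flies were about 3 to 5 days old and raised at 25 °C, and each genotype gave 15 to 25 heads. The study asked which transcripts such seizure-prone lines share. Because the lines were mixed before hybridisation, no value exists for a single line, and a change in 1 line is diluted by the others. The tissue is labelled brain, but the protocol removed heads, and besides 9 neuron markers, with mean levels of 9.95 to 10.04 on the log2 scale, the arrays read markers of photoreceptors (11.85 to 11.98), muscle (9.31 to 9.89) and fat body (12.64 to 12.80). In RNA of whole heads, fewer cells of a type and less RNA per cell cannot be told apart. It is not stated whether replicate arrays hold RNA of different flies or different mixtures, so the errors and p-values cover only array-to-array spread, possibly technical.

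These channels shape the firing of nerve cells. Voltage-gated sodium channels carry the upstroke of the action potential, voltage-gated calcium channels admit the calcium that triggers transmitter release and muscle contraction, and leak and hyperpolarization-activated channels set the resting potential and rhythmic firing. In the fly, para is the main sodium channel gene of neurons, and mutations in it either cause or suppress seizures after mechanical shock, the behaviour known as bang sensitivity.

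None of the 8 channel genes passed the test between pool and control. In limma, 0 rose and 0 fell at an adjusted p of 0.05, and 0 had an unadjusted p under 0.05. Over the whole array 2.90% of rows passed in either direction (1.65% higher and 1.24% lower in the pool), and 14.8% had an unadjusted p under 0.05. With 8 genes, a count of 0 is near that background. The log2 differences, pool minus control, ran from -0.04 to 0.08; 5 were positive and 3 negative. Their median was 0.014, against -0.001 over all rows, and the median of their absolute sizes was 0.025, against 0.069 over all rows. For a call, the observed difference in these rows had to reach 0.25 to 0.36 log2, that is 1.19-fold to 1.29-fold. This follows from their standard errors of 0.053 to 0.075. The 95% intervals of all 8 genes lay between a fold of 0.862 and 1.155. An observed difference below the size needed for a call would not have passed with 3 arrays a group. True changes within these intervals remain possible.

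**Figure D1:**
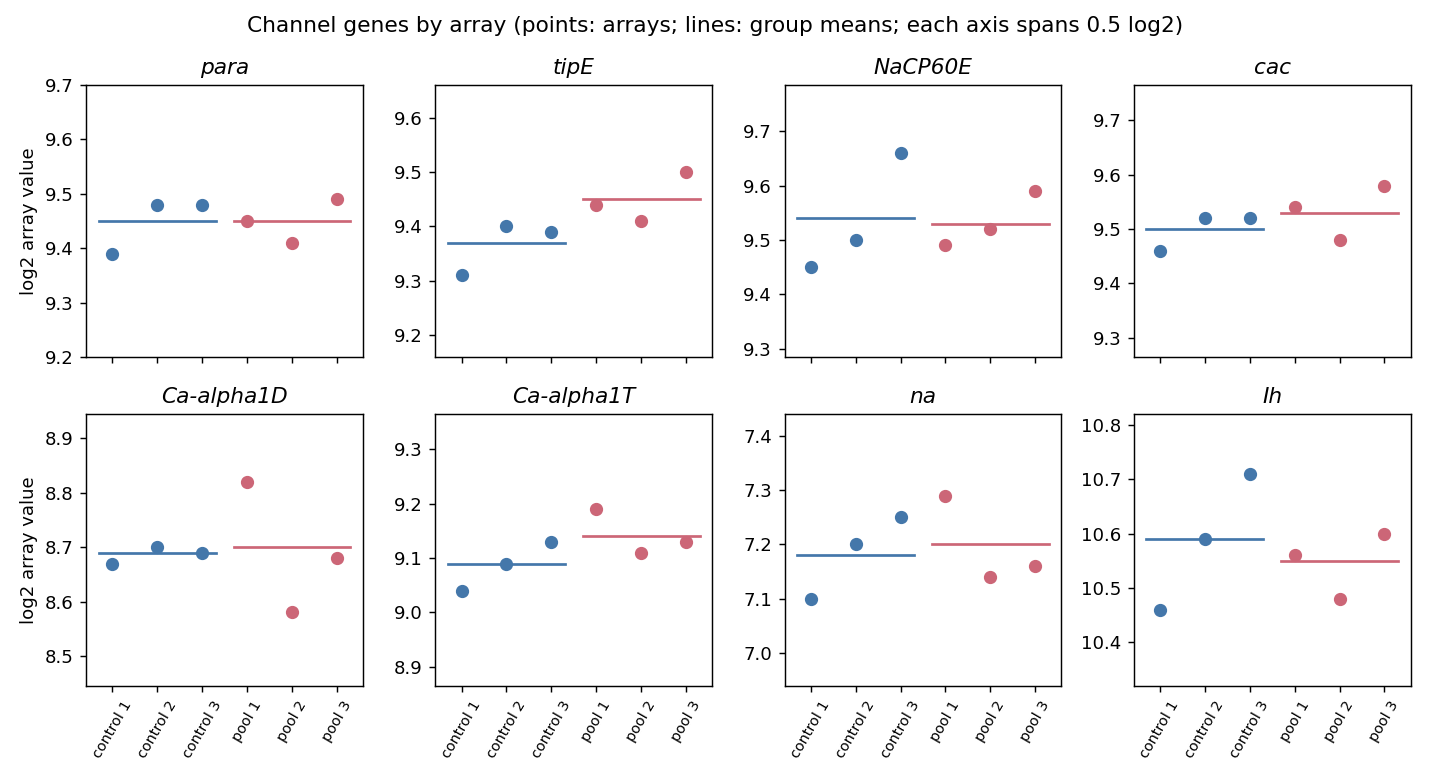
Deposited log2 value of each channel gene on each array, with control arrays in blue, pool arrays in red and group means as lines; each vertical axis spans the same log2 distance but starts at a different level. The groups overlap for every gene except tipE, whose 3 pool arrays (9.41 to 9.50) all lie above its 3 control arrays (9.31 to 9.40).

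Among the sodium channel genes, para encodes the pore-forming subunit behind the action potential of fly neurons. Its row read 9.39, 9.48 and 9.48 on the log2 scale in the control arrays and 9.45, 9.41 and 9.49 in the pool arrays. The groups overlapped in part, with control array 1 lowest and pool array 3 highest, and their means were both 9.45, with SDs of 0.053 and 0.040 (n = 3 per group). The difference of 0.00 had a 95% interval of -0.13 to 0.12, or a fold of 0.917 to 1.09 (limma adjusted p = 0.999). The para transcript is known to be spliced and edited in many forms, and with 1 row for the gene these forms were not separated.

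NaCP60E, also called DSC1, encodes a relative of para that conducts calcium better than sodium. Its control arrays read 9.45, 9.50 and 9.66 and its pool arrays 9.49, 9.52 and 9.59. All 3 pool values lay inside the range of the controls, where 1 array stood above the other 2. The difference was -0.01 (95% interval -0.17 to 0.15, limma adjusted p = 0.976).

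The gene tipE encodes a transmembrane protein that raises the current through the para channel. It read 9.31, 9.40 and 9.39 in the controls and 9.44, 9.41 and 9.50 in the pool. It was the 1 gene of the 8 whose groups did not overlap, which also held for 21.5% of all rows. The gap between the highest control and the lowest pool array was narrow, and the difference of 0.08 (SE 0.055, 95% interval -0.05 to 0.21, 1.058-fold) did not pass limma (adjusted p = 0.571). An exact permutation test of the 3 against 3 values, two-sided, gave p = 0.1, the smallest that this design allows. In absolute size 43.2% of all rows differed by more than tipE.

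Among the calcium channel genes, cac encodes the channel of fly synapses, whose calcium triggers transmitter release. Its values were 9.46, 9.52 and 9.52 in the controls and 9.54, 9.48 and 9.58 in the pool. The pool values fell on both sides of the control mean, and the means of 9.50 ± 0.032 and 9.53 ± 0.051 (SD, n = 3 per group) differed by 0.03 (95% interval -0.09 to 0.16, limma adjusted p = 0.833).

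Ca-alpha1D encodes the L-type channel of the fly, which serves neurons and muscle. The controls were close together at 8.67, 8.70 and 8.69, while the pool read 8.82, 8.58 and 8.68. The pool therefore held both the highest and the lowest of the 6 arrays, with an SD of 0.122 against 0.013 in the controls, and the difference was 0.01 (95% interval -0.15 to 0.17, limma adjusted p = 0.968). Of 10 measured muscle markers 5 rose and 0 fell, against 2.82% of all named genes that passed in either direction. The median of the 10 markers was 0.17, and their list was written with earlier results of these data known. The 3 largest rises were the flight muscle actin gene Act88F at 1.96 log2, the flightin gene fln at 1.90 and TpnC4, a troponin C gene, at 1.16. The troponin T gene up stood at 0.28 and the myosin light chain gene Mlc1 at 0.25, and both lost their call with any 1 array left out, which took the count to 3. The mean level over the 10 markers was 9.31 to 9.36 on the control arrays and 9.88 to 9.89 on the pool arrays. Without the 3 flight muscle genes, a split made after seeing the values, it was 10.31 to 10.35 and 10.39 to 10.43, and the median difference was 0.03. Their part in the Ca-alpha1D value was not tested.

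Ca-alpha1T encodes the T-type channel, which opens near the resting potential and is known in the fly for a role in sleep. It read 9.04, 9.09 and 9.13 in the controls and 9.19, 9.11 and 9.13 in the pool. Control array 1 was the lowest and pool array 1 the highest, and the remaining values overlapped. The difference was 0.05 (95% interval -0.07 to 0.18, limma adjusted p = 0.720), after tipE the second largest among the 8 genes.

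The sodium leak channel gene na, named narrow abdomen, carries a background current that keeps clock neurons excitable. Its arrays read 7.10, 7.20 and 7.25 in the controls and 7.29, 7.14 and 7.16 in the pool. The groups overlapped and differed by 0.02 (95% interval -0.13 to 0.17, limma adjusted p = 0.941). Ih encodes the channel that opens on hyperpolarization. Its values were 10.46, 10.59 and 10.71 in the controls and 10.56, 10.48 and 10.60 in the pool. All 3 pool values lay inside the control range, which at 0.26 was the widest of the 8 genes, and the difference of -0.04 had the widest interval as well (-0.21 to 0.14, limma adjusted p = 0.869).

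**Figure D2:**
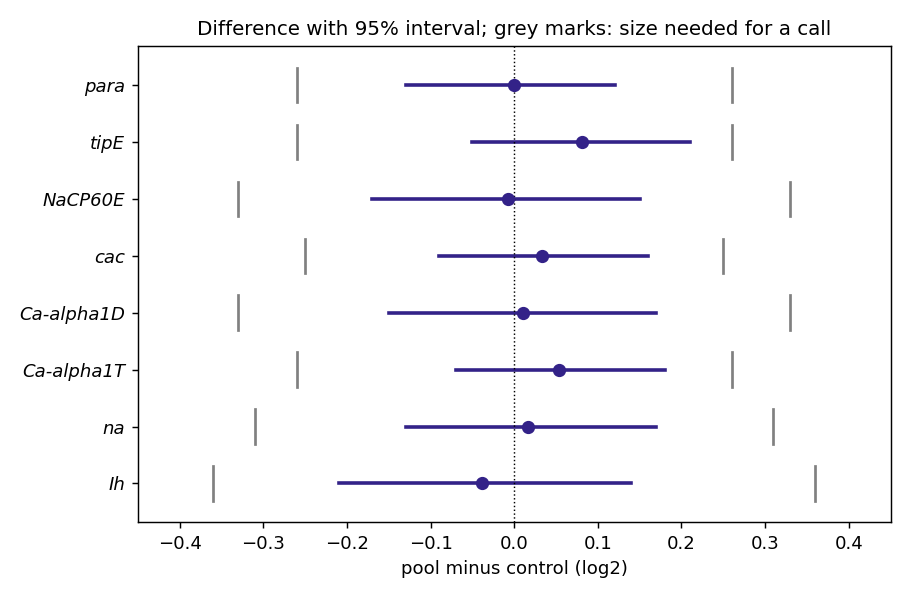
Difference between pool and control for each channel gene on the log2 scale (points) with its 95% interval from limma (lines); grey marks show the size that the row would have needed for an adjusted p under 0.05. Every interval includes 0 and ends short of the grey marks, which lie 0.25 to 0.36 from 0.

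On 3 of the 6 arrays the 8 genes deviated from their group means in 1 direction. All 8 lay below the mean on control array 1 and pool array 2, and all 8 above it on control array 3. On control array 2 they split 6 above and 2 below, and on pool arrays 1 and 3 they split 5 above and 3 below. Control array 1 was the lowest control for 8 of 8 genes, and pool array 2 was the lowest pool array for 7 of 8. Among all named genes control array 1 was the lowest control for 37.6%, pool array 2 the lowest pool array for 37.3%, and both held for 16.0%, against 7 of the 8 channel genes. These 2 arrays were singled out from the values of the channel genes themselves, so the contrast is only a description. The mean deviation of the 8 genes from their group means was -0.063 log2 on control array 1 and -0.054 on pool array 2, and 0.009 to 0.054 on the other 4 arrays. The same mean over all named genes stayed between -0.007 and 0.012. Neuron markers, 9 of them measured, stood at -0.035 on control array 1 and -0.016 on pool array 2. The 10 measured subunit and assembly genes named below stood at -0.060 and -0.044. The labels give no extraction, hybridisation or scan batch, so a batch behind these arrays was not tested. These shifts are as large as most differences between the groups given above.

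**Figure D3:**
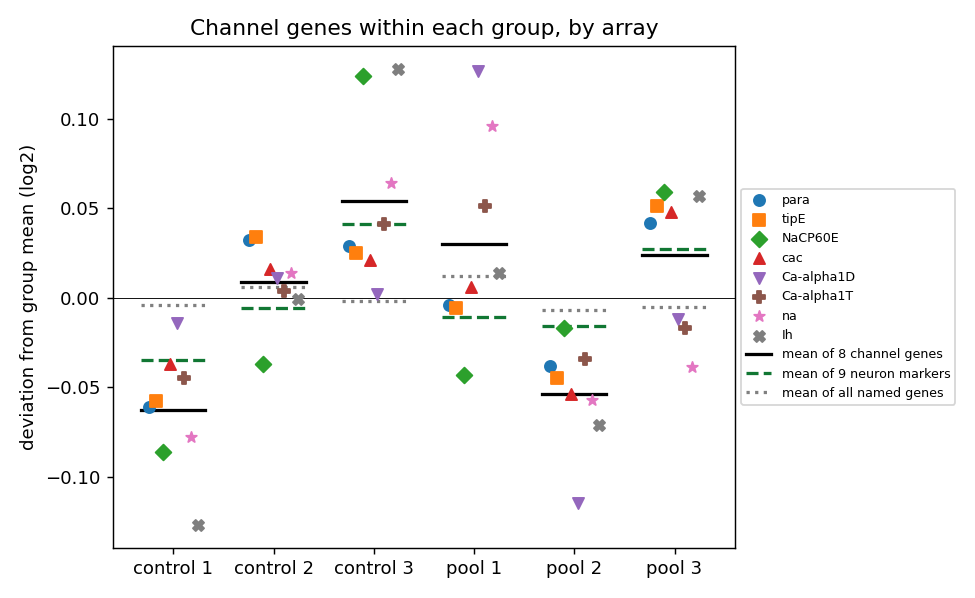
Deviation of each channel gene from the mean of its group on each array, in log2 units (symbols), with the mean over the 8 genes (solid bars), over 9 neuron markers (dashed bars) and over all named genes (dotted bars). All 8 symbols lie below 0 on control array 1 and on pool array 2, where the solid bars stand at -0.063 and -0.054.

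Over the 6 arrays 27 of the 28 pairs of channel genes had a positive Pearson r, with a median of 0.50. Over all pairs of named genes 50.6% had a positive r and the median was 0.01, and among genes above the dimmest 25% of rows these were 51.2% and 0.02. The arrays are shared by all pairs, so these values are a description of 6 points. The closest pairs were tipE with cac (r = 0.91, Spearman rho = 0.77), NaCP60E with Ih (r = 0.87, rho = 0.83) and Ca-alpha1T with na (r = 0.87, rho = 0.83). The 1 negative pair was NaCP60E with Ca-alpha1D (r = -0.11, rho = -0.09). Among the other 13345 named genes, the 2 most like para across the arrays were bt (r = 0.992) and atl (r = 0.988). Those most like tipE were Ubc6 (0.992) and CG7083 (0.990), and those most like NaCP60E were CG3408 (0.987) and CG18558 (0.986). For cac they were ZnT33D (0.996) and par-1 (0.993), and for Ca-alpha1D Ent2 (0.991) and Etl1 (0.990). For Ca-alpha1T they were Reps (0.989) and CG7149 (0.988), for na tank (0.994) and Gr36c (0.987), and for Ih beta-PheRS (0.995) and Lk6 (0.991). Spearman rho of these pairs was 0.66 to 1.00. Some of the named genes were dim: control means were 3.75 for Gr36c, 3.73 for CG18558 and 4.56 for ZnT33D. These lie below the array medians of 5.53 to 5.63, toward the lowest value of 3.20. With only 6 points such values are common, since each channel gene had r above 0.9 with 107 to 265 other genes.

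Most of these channels work with further subunits and assembly factors. Of 11 such genes listed, 10 were measured, and 0 rose and 0 fell in limma at an adjusted p of 0.05, with 1 at an unadjusted p under 0.05. Their log2 differences ran from -0.05 to 0.16 with a median of 0.10, against -0.001 over all rows. Of the 10 genes 8 were positive, where 49.8% of all rows were positive. This lean was not particular to them: 7 of 9 regulators and 8 of 10 calcium handling genes, both described below, were also positive. Over these lists together, 23 of 29 genes were higher in the pool and 6 lower. Of the 9 neuron markers 4 were higher and 5 lower. All these genes were read on the same arrays, so their signs are not independent and the counts are only a description. The smallest p of the 10 subunit and assembly genes belonged to unc79, which encodes a large partner protein of the na leak channel. It read 8.74, 8.81 and 8.80 in the controls and 8.97, 8.88 and 9.0 in the pool. Its groups did not overlap, which also held for 21.5% of all rows, and its difference of 0.16 (SE 0.056) did not pass (adjusted p = 0.212). The calcium channel beta subunit gene Ca-beta stood at 0.16 (adjusted p = 0.387), and stj, which encodes an alpha2delta subunit that brings calcium channels to the synapse, at 0.14 (adjusted p = 0.438). The other partner genes of na, unc80 and Mid1, stood at -0.05 (adjusted p = 0.792) and 0.07 (adjusted p = 0.730), so the values of the 3 partner genes differed in sign.

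The relatives of tipE are Teh1, Teh2, Teh3 and Teh4. In the RefSeq gene order Teh3, Teh2 and Teh4 lie 2, 3 and 4 protein-coding genes away from tipE. Teh1 stood at 0.12 (adjusted p = 0.462), Teh2 at -0.04 (0.840), Teh3 at 0.10 (0.561) and Teh4 at 0.10 (0.561), beside the 0.08 of tipE. None passed limma, and the groups of all 4 overlapped, unlike those of tipE.

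Genes that regulate these channels did not pass either. Of 9 measured regulators 0 rose and 0 fell, 1 had an unadjusted p under 0.05, and the median difference was 0.07. That gene was Rim, an active zone scaffold that helps to gather calcium channels at the synapse. Its control arrays read 10.02, 10.03 and 10.08 and its pool arrays 9.75, 9.85 and 9.86. All pool values lay below all control values, but the difference of -0.22 (SE 0.054) had a limma adjusted p of 0.0854. The RNA-editing enzyme gene Adar, whose targets include para and cac, stood at 0.12 (adjusted p = 0.395). Rbp, which links cac to the active zone, stood at 0.09 (adjusted p = 0.447), and the active zone gene brp stood at 0.09 (adjusted p = 0.599). The groups of Adar and Rbp did not overlap either. With Rim these were 3 of the 9 regulators, against 21.5% of all rows.

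Of 10 genes that handle calcium within the cell or across its membrane, 1 fell and 0 rose. Their median was 0.04, and 2 had an unadjusted p under 0.05. The gene that fell was zyd, which encodes a sodium, potassium and calcium exchanger of cortex glia. It read 7.40, 7.43 and 7.26 in the controls and 6.99, 6.88 and 6.96 in the pool, and the groups were well apart. The difference was -0.42 (SE 0.064, limma adjusted p = 0.0149). It kept its call without control replicate 3 (adjusted p = 0.015) and lost it without each of the other 5 arrays (up to 0.0673). The other gene with an unadjusted p under 0.05 was Calx, a sodium and calcium exchanger gene. Calx was higher in the pool by 0.25 (SE 0.055) with groups that did not overlap, but did not pass (limma adjusted p = 0.0621). The groups of 3 of the 10 genes, zyd and Calx among them, did not overlap, against 21.5% of all rows. Over the 3 lists of subunits, regulators and calcium handling genes together, 0 of 29 measured genes rose and 1 fell, against 2.82% of all named genes that passed in either direction.

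**Figure D4:**
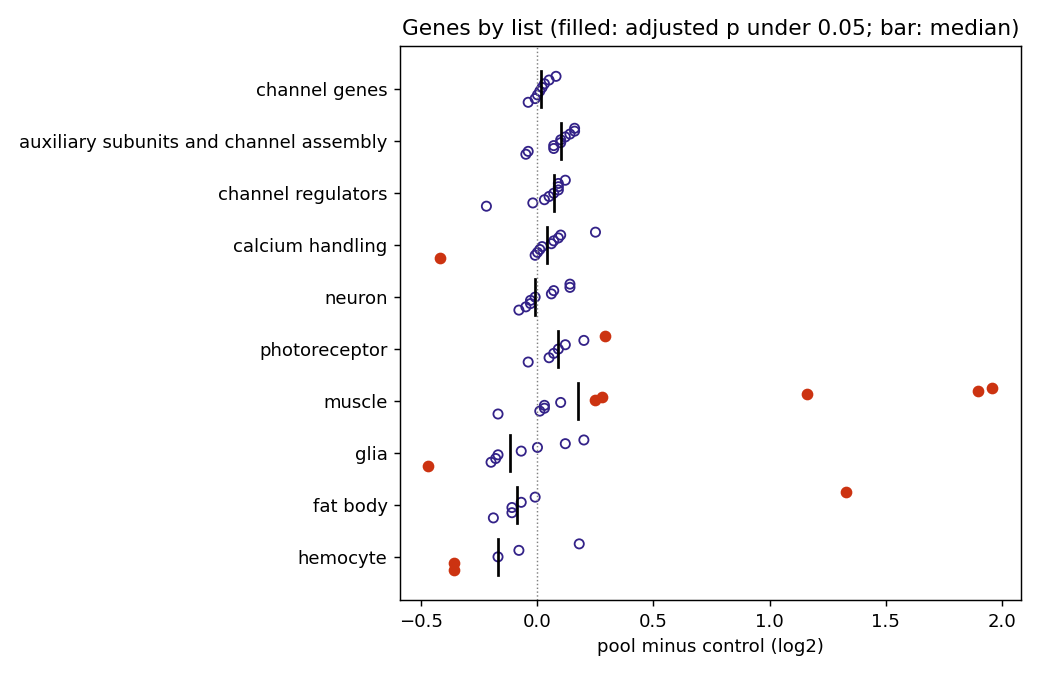
Difference between pool and control on the log2 scale for every measured gene of each list (circles; filled where the limma adjusted p was under 0.05), with the list median as a bar. The channel genes lie between -0.04 and 0.08, and in each of the other lists 1 or more genes lie outside that range; the filled circles are in the calcium handling, photoreceptor, muscle, glia, fat body and hemocyte lists.

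Markers of the cells that make up the head give the setting for these values. The marker lists were written with earlier results of these data known. For comparison, 2.82% of all named genes passed in either direction. Of 9 measured neuron markers 0 passed in either direction, their median difference was -0.01, and their mean level was 9.95 to 10.03 on the control arrays and 10.00 to 10.04 on the pool arrays. Differences among them ran from -0.08 to 0.14. Of 7 photoreceptor markers 1 rose and 0 fell, with a median of 0.09. That gene was the photoreceptor adhesion gene chp, at 0.29 (adjusted p = 0.0309), and with any 1 array left out it no longer passed (0.0544 to 0.119). Of 8 glia markers 0 rose and 1 fell, with a median of -0.12. The gene that fell was wrapper, at -0.47 (adjusted p = 0.00299). Among the 8, nrv2 (-0.07) is itself a knockdown target in the pool, and without it the median was -0.17 and the count the same. The mean level of the 8 was 9.52 to 9.54 on the control arrays and 9.41 to 9.44 on the pool arrays. Of 6 fat body markers 1 rose and 0 fell. This was the storage protein gene Lsp2, at 1.33 (adjusted p = 1.45e-05), while the other 5 were negative and the list median was -0.09. Of 5 hemocyte markers 0 rose and 2 fell, with a median of -0.17. They were the prophenoloxidase genes PPO1 and PPO2, both at -0.36 (adjusted p = 0.00875 and 0.00827). Whether the makeup of the heads bears on the channel values was not tested.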

How the data were processed

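Head RNA of control and pool flies was hybridised to Drosophila Gene 1.0 ST GeneChips, 3 per group. The authors deposited 1 value per row and array; the log2 scale was inferred from their range of 3.20 to 14.02. Affymetrix Expression Console made these values, per the submitters' processing notes. For the version, summarization method and genome build, the sources used here give nothing. These deposited log2 values were taken without further scaling, so a shift common to most genes may already have been removed. Array medians were 5.53 to 5.63, and 2 arrays of a group differed by an SD of 0.150 to 0.180 log2, so none duplicated another.

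The 16322 rows comprised 13441 with a single gene symbol, 555 with more and 2326 without; 144 symbols were updated from RefSeq's Release 6 plus ISO1 MT gene table. A gene with several rows was read from its row of highest mean. Of the genes listed as subunits and regulators, stol and Cam had no row of their own in the annotation and were not analysed here. The same held for the listed markers Syt1, ninaE, norpA, Mhc, wupA, Tm1, Act57B, Eaat1 and srp. The marker medians and levels therefore rest on 10 of 14 muscle markers and 7 of 9 photoreceptor markers, for example. No coordinates are printed.

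Pool and control were compared over all rows with lmFit and eBayes of limma 3.58.1 in R 4.3.3, two-sided, with Benjamini-Hochberg adjustment and a threshold of 0.05; residual degrees of freedom were 4 and prior degrees of freedom 3.78. The size needed for a call uses the highest unadjusted p among called rows, 0.00141. The limma fit of pool against control was tested on simulated data with independent noise and 200 changed rows. Those data held no shift shared by the genes of an array, so the test cannot bear on such shifts. The number of arrays limits the precision. All 8 members were named. In the subunit, regulator and calcium lists called genes were named, or up to 4 of smallest p; marker lists are given by counts, medians and their called genes; and for the likeness to each member the 2 genes of highest Pearson r. Where further list genes are named, they complete a family or complex or, for Calx, had an unadjusted p under 0.05. These were chosen after their values were seen. The members and lists were chosen with earlier results of these data known. Alternatives covered scaling (quantile, median centring), rows (without the dimmest 25%, or with a single symbol), arrays (each left out, array weights), the replicate number as a block, and the variance model (trend and robust eBayes, an ordinary t statistic). Python 3.11.15 with matplotlib 3.10.9 drew the figures.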

Additional observations from a re-analysis of the deposited data

How the results depend on the processing

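Under all 14 alternatives 0 of the 8 channel genes passed. Their largest absolute difference was 0.10 log2 and their smallest adjusted p 0.434. Differences this near 0 changed sign in 15 of 112 values. With arrays centred on their median Ca-alpha1D stood at -0.022 and na at -0.015, after quantile normalization Ca-alpha1D stood at -0.007, and with array weights NaCP60E stood at 0.008. With 1 array left out, para ran from -0.031 to 0.019, NaCP60E from -0.051 to 0.054, Ca-alpha1D from -0.053 to 0.068, na from -0.031 to 0.049 and Ih from -0.10 to 0.026, while tipE (0.05 to 0.10), cac (0.01 to 0.06) and Ca-alpha1T (0.03 to 0.07) stayed positive. The mean over a gene's rows gave no other value for the 8 genes, since each had 1 row.

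Among the 29 associated genes 1 passed as reported, 2 with the dimmest 25% of rows dropped (zyd and Calx, adjusted p = 0.0124 and 0.0462), 3 with eBayes trend and robust settings (zyd, Calx and Rim, adjusted p = 0.00365, 0.0176 and 0.00912), 0 with an ordinary t statistic, and 0 to 1 with 1 array left out. Calx, which was named after its values were seen, had adjusted p = 0.0621 as reported and 0.0176 to 0.201 over the alternatives. For Rim the range was 0.00912 to 0.237 and for zyd 0.00365 to 0.0909. Rows called over the whole array numbered 473 as reported, 312 with the replicate number as a block, 861 with trend and robust settings, 196 with an ordinary t statistic and 218 to 312 with 1 array left out. The labels do not say whether the replicate numbers pair the arrays. Deviations of same-numbered arrays correlated at -0.014, -0.005 and 0.090, and those of different-numbered arrays at -0.067 to 0.078, which cannot settle it. The block changed no call among the 8 genes, whose limma adjusted p without it was 0.571 or more. The cause of the other changes was not tested.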
